A study of Mus musculus with 25 samples.

Results

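These data describe how control thymocytes held at the DN3 stage differed in their transcripts 48 hr after an injection of anti-CD3ε from unstimulated thymocytes. RNA sequencing of polyA RNA covered 6 libraries, 3 at 0 hr and 3 at 48 hr, of 25 in the series. Each library came from a separate mouse of 1 experiment. The genes described are the 13948 of 48795 in the deposited table whose mean value over these 6 libraries was at least 10. This filter used the level of a gene and not its change. A gene near 0 at 0 hr could still pass it only through its 48 hr level, and the reverse. Such genes therefore entered only where the times differed. Just outside it stood *Gdf9* (mean 9.99), *Snord21* (9.99) and *Card14* (9.99), and just inside it *Bcl2a1b* (10.002), *Gldc* (10.003) and *Rpl39l* (10.015). Values are normalized counts, which are reads per gene divided by the size factor of the library.

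All mice were *Wnk1* fl/+, CD2-Cre and *Rag1* knockout, and were 7 to 8 weeks old. CD2-Cre acts in lymphoid cells, so that the control thymocytes too carry a deletion of a single copy of *Wnk1*. The 0 hr mice were not injected and the 48 hr mice received 150 µg of anti-CD3ε into the peritoneum, so that the antibody, the injection itself and time cannot be told apart. Sorting kept Thy1.2+CD44- cells, so both DN3 and DN4 thymocytes were included.

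The DN3 stage is where a thymocyte tests its TCRβ chain. The chain pairs with the invariant pre-TCRα chain and with CD3 to form the pre-TCR, and its signal ends rearrangement of the β locus, starts division and moves the cell through DN4 towards the CD4+CD8+ double positive (DP) stage. RAG1-deficient cells make no TCRβ and stop before this checkpoint. An antibody to CD3ε cross-links the CD3 chains that reach their surface and stands in for the missing signal.

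Depth ran from 30.6 to 54.2 M reads (M, megareads) in the 6 libraries, and 99.9% of these reads fell on the genes described. *Wnk1*, of which these mice carry a single floxed copy, stood at 5643, 5407 and 7356 normalized counts at 0 hr and at 12093, 10506 and 16896 at 48 hr. *Rag1*, the disrupted gene, still gave 13541, 16416 and 27459 at 0 hr, so its reads do not report a working protein. The female transcript *Xist* lay between 10918 and 45584 in all 6 libraries. In the control libraries taken at 3 and 24 hr it was at most 13.8, and these came from lanes 3 and 4, so their means are given beside the others without a test. Some 24 hr means join unlike libraries, with replicate 3 apart from replicates 1 and 2. In replicates 1, 2 and 3 *H19* stood at 41.1, 88.2 and 1530 and *Ptcra* at 59.2, 115 and 2344. The gap was smaller for *Nr4a1* (2140, 3733 and 1484). Its cause was not tested. The lane number in the sample names was 1 for the 3 libraries at 0 hr, and at 48 hr it was 2 for replicates 1 and 2 and 1 for replicate 3. Replicate 3 is thus the only 48 hr library that shares a lane with the 0 hr libraries, and counts are also given with it alone at 48 hr. That arm is then 1 mouse, assumed to vary like the mice of the other groups, so in these counts lane and mouse cannot be told apart. Where leaving out 1 library moves a count of a gene list by over 1.5 times, the numbers higher and lower without it follow in that order. In bulk RNA, fewer cells of a type and less RNA per cell cannot be told apart.

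Thymocyte markers as a sum stayed high at both times. The sum of 8 such markers was 326000 to 376000 at 0 hr and 275000 to 314000 at 48 hr. Of these 8, 3 were called higher and 4 lower, so the sum holds opposing changes. *Tcf7* went from 44451, 45346 and 45227 to 99544, 107987 and 96605 and *Cd3g* from 93855, 86508 and 76061 to 16470.2, 20816 and 19382. Markers of other cells moved in either direction or were not called. The sum of 8 macrophage and monocyte markers fell from between 2540 and 2960 to between 315 and 627, with 6 of 8 called lower. Most of it at 0 hr was *Lyz2*, the lysozyme of these cells, which went from 2203, 1763 and 1654 to 25.8, 54.3 and 94.1. *Cd68* and *Itgam* were not called, and *Itgam* lay higher in every 48 hr library (28.1, 26.4 and 37.0, then 120, 81.1 and 82.1). The sum of 7 thymic epithelium markers fell from between 3800 and 4060 to between 600.0 and 719, with 4 of 6 tested called lower, most of it *Epcam*. Of 8 mature T cell markers all 6 tested were higher, and the sum of the 8 went from between 86.7 and 102 to between 6160 and 11200. Most of it at 48 hr was *Il2rb* (4148, 6348 and 8274). *Cd40lg* and *Ly6c2* reached the mean of 10 only through their 48 hr level. Of the untested markers, *Zbtb7b* went from 2.34, 7.39 and 9.52 to 3.36, 11.6 and 8.01 and *Ifng* from 0 in each library to 5.61, 16.7 and 6.01. Among 8 NK and innate lymphoid markers the sum went from between 51.6 and 99.4 to between 306 and 457, 1 of 2 tested was called higher and *Klre1* was at 0 in 5 of the 6 libraries. The sum of 8 B cell markers was 2260 to 2630 and then 1280 to 2140, of which 1 was at 0 in all 6 libraries and 5 stayed under 10, and none of 3 tested was called. The sums of 8 early progenitor markers (1880 to 2730, then 967 to 1870), of 8 dendritic cell markers (615 to 839, then 123 to 315, with 6 of them under 10 in all 6 libraries), of 6 neutrophil markers (at most 41.2) and of 4 erythroid markers (827 to 3190, then 184 to 400.0) were small beside the thymocyte sum. Of 7 fibroblast and endothelium markers 4 were under 10 in all 6 libraries, and their sum (3030 to 5220, then 2580 to 3450) was nearly all *Pdgfrb* (5173, 4169 and 2976, then 2807, 2519.6 and 3392, not passing), so it does not report these cells as a class. The part of these other cells in the results was not tested.

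Of the 13948 genes, 6007 (43.1%) passed an adjusted p of 0.05 in the limma fit. A gene is said to have risen or fallen only if it passed. At 48 hr 3026 genes (21.7%) were higher and 2981 (21.4%) were lower. The libraries of the 2 times did not overlap for 7076 genes (50.7%), and for 5664 (94.3%) of the genes that passed. A change of at least 2-fold was seen in 1582 of the higher and 1497 of the lower genes. The median log2 change over all genes was -0.017 and the central 80% lay between -1.20 and 1.25. The first principal component held 75.0% of the variance and set the 3 libraries at 0 hr (-85.0, -82.9 and -79.7) apart from the 3 at 48 hr (75.7, 81.1 and 90.9). Scaling the libraries to a common upper quartile moved the median to -0.12, and then 2529 genes were higher and 3597 lower.

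**Figure D1:**
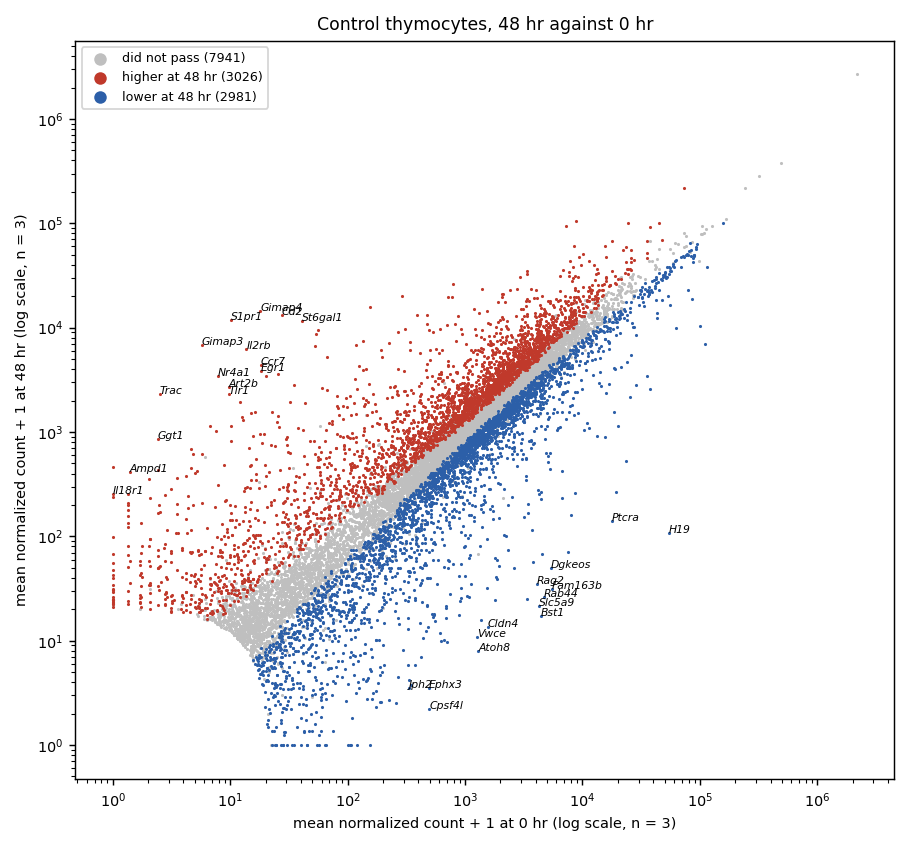
Mean normalized count plus 1 at 0 hr (x axis, log scale) and at 48 hr (y axis, log scale) of the 13948 genes, 3 mice per mean. Red points mark the 3026 genes higher and blue points the 2981 lower at 48 hr, grey points the 7941 that did not pass, and names mark genes of the 15 largest rises and 15 largest falls whose groups do not overlap and whose mean reached 100.

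The 15 largest rises were led by genes that are nearly silent in unstimulated cells. *S1pr1*, the sphingosine 1-phosphate receptor that lets T cells leave the thymus (chromosome 3, 115710433 to 115715055), went from 12.9, 9.502 and 5.29 normalized counts in the 3 libraries at 0 hr to 8767, 9737 and 16921 at 48 hr. *Trac*, the constant region of the TCRα chain (chromosome 14, 54220521 to 54224198), went from 3.52, 0 and 1.06 to 1247, 2802 and 2864. Every library at 48 hr was far above every library at 0 hr for both genes, with log2 changes of 10.18 (SE 1.25, adjusted p = 1.68e-06) and 10.002 (SE 0.83, adjusted p = 1.07e-08). These log2 changes are on the log2(value + 1) scale, which understates the change of genes near 0. Each SE comes from a fit of all 25 libraries as 8 groups, so it is not the spread of the 6 libraries alone.

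Receptors and surface molecules made up much of the rest of these 15. *Cd2*, an adhesion receptor of T cells, went from 14.1, 32.7 and 32.8 to 9378, 16772 and 13155, a log2 change of 8.95 (SE 0.71). *Il2rb*, the β chain of the IL-2 and IL-15 receptors, went from 12.9, 14.8 and 10.6 to 4148, 6348 and 8274 (log2 change 8.79, SE 0.75). In both genes replicate 1 was the lowest of the 3 libraries at 48 hr and still far above 0 hr. *Il18r1*, a chain of the IL-18 receptor, was at 0 in all 3 libraries at 0 hr and at 158, 166 and 435 at 48 hr, at least 231-fold higher when the 0 hr group is set to 3 reads in all. *Ccr7* (8.07), *Tlr1* (7.85), the surface ADP-ribosyltransferase *Art2b* (8.12), the sialyltransferase *St6gal1* (8.19), *Ggt1* (8.53) and the AMP deaminase *Ampd1* (8.33) rose with them on the log2 scale, as did the nuclear receptor *Nr4a1* (8.75), the zinc finger factor *Egr1* (7.69), *Gimap3* (10.15) and *Gimap4* (9.715).

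The largest fall was that of *H19*, an imprinted long noncoding RNA (chromosome 7, 142575530 to 142578146), from 66512, 52645 and 43284 normalized counts at 0 hr to 85.2, 92.7 and 145 at 48 hr. Every mouse at 48 hr was far below every mouse at 0 hr (log2 change -8.98, SE 0.81, adjusted p = 3.21e-08). *Bst1*, which codes for the surface enzyme CD157, went from 3893, 4716 and 4725 to 22.4, 14.5 and 12.014 (log2 change -8.04, SE 0.76). *Atoh8*, a basic helix-loop-helix factor, went from 1325, 1335 and 1224 to 7.85, 7.96 and 5.01 (log2 change -7.37, SE 0.73). The times did not overlap in either gene. Others among the 15 were the DN3 genes *Ptcra* and *Rag2*, the sugar transporter *Slc5a9* (-7.80), *Rab44* (-7.55), *Fam163b* (-7.49), the claudin *Cldn4* (-6.98), *Vwce* (-6.91), the noncoding *Dgkeos* (-6.74), *Cpsf4l* (-7.91), the epoxide hydrolase *Ephx3* (-7.57) and the junctophilin *Jph2* (-7.00), all on the log2 scale. *Ephx3* changed by -6.89 without 48 hr replicate 1 on the log2 scale. *Ephx3* changed by -8.29 without 48 hr replicate 3 on the log2 scale. *Jph2* changed by -6.32 without 48 hr replicate 1 on the log2 scale. *Jph2* changed by -7.72 without 48 hr replicate 3 on the log2 scale.

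The DN3 program fell. Of 18 genes of this stage that were tested 12 fell and 1 rose, against 21.4% and 21.7% of all genes, and the median log2 change of the list was -2.17. *Ptcra*, the pre-TCRα chain (chromosome 17, 46755663 to 46763712), went from 18678, 17744 and 17024 to 173, 114 and 135 normalized counts. *Rag2*, which with RAG1 cuts the antigen receptor loci, went from 3091, 4225 and 5012 to 54.9, 18.8 and 28.033. The groups were far apart in both genes (log2 changes -6.99, SE 1.02, and -6.99, SE 0.93). These SEs take in the other groups of the fit, such as the control 24 hr libraries (59.2, 115 and 2344 for *Ptcra*). The disrupted *Rag1* fell alongside, from 13541, 16416 and 27459 to 457, 159 and 176. *Dntt*, the terminal transferase that adds bases at junctions, fell from 110004 ± 11363 to 7019 ± 2773 (SD, n = 3; log2 change -4.04), and *Il2ra*, the CD25 that marks DN3 cells, from 100821 ± 2998 to 10266 ± 2666 (-3.33). The ETS factor *Erg* (-3.27), *Mycn* (-2.80) and the surrogate light chain gene *Igll1* (-5.05) fell too. *Kit* (-0.57), *Lmo2* (0.34) and *Hhex* (-1.20) did not pass, and *Il7r*, the IL-7 receptor, was the gene that rose (0.75, groups overlapping). DN3 stage genes gave 0 and 12 without 0 hr replicate 1 or 48 hr replicate 3 and 0 and 11 without 0 hr replicate 2 or 48 hr replicate 1 (higher and lower). *Il7r* lost its call without 0 hr replicate 1 or 2 or 48 hr replicate 1 or 3 (adjusted p = 0.0812 to 0.106).

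The promoters of *Ptcra*, *Rag1* and *Rag2* are shown because these genes fell together and are textbook targets of E proteins, factors that bind E-boxes. Each runs from 250 bases before to 50 bases after the RefSeq start site (GRCm38.p6), in the direction of the gene, with E-boxes (CANNTG, the same letters on both strands) in capitals. *Ptcra* lies at chr17:46763663-46763962 on the minus strand, *Rag1* at chr2:101649483-101649782 on the minus strand and *Rag2* at chr2:101624462-101624761 on the plus strand.
Ptcra: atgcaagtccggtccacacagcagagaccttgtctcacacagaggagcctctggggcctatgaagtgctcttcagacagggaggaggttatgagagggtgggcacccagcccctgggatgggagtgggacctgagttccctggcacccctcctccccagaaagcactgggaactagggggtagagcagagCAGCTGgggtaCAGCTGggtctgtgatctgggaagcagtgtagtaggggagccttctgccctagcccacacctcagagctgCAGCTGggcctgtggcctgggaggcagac
Rag1: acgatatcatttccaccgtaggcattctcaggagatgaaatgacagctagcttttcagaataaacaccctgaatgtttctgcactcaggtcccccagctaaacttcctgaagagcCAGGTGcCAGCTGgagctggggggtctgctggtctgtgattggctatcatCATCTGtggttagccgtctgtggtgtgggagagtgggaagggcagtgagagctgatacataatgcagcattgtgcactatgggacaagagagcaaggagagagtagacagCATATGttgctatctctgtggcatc
Rag2: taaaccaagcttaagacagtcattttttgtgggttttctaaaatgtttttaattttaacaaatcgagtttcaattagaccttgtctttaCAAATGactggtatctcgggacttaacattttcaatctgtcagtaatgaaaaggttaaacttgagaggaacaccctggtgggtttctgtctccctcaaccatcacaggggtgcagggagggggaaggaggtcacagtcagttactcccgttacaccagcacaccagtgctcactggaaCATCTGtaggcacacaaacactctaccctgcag
There were 3 matches in *Ptcra* (-60, -49 and 21 bases from the start site), 4 in *Rag1* (-135, -128, -85 and 25) and 2 in *Rag2* (-161 and 17). At least 1 such match is held by 72.3% of the 32851 RefSeq promoters of the same length.

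**Figure D2:**
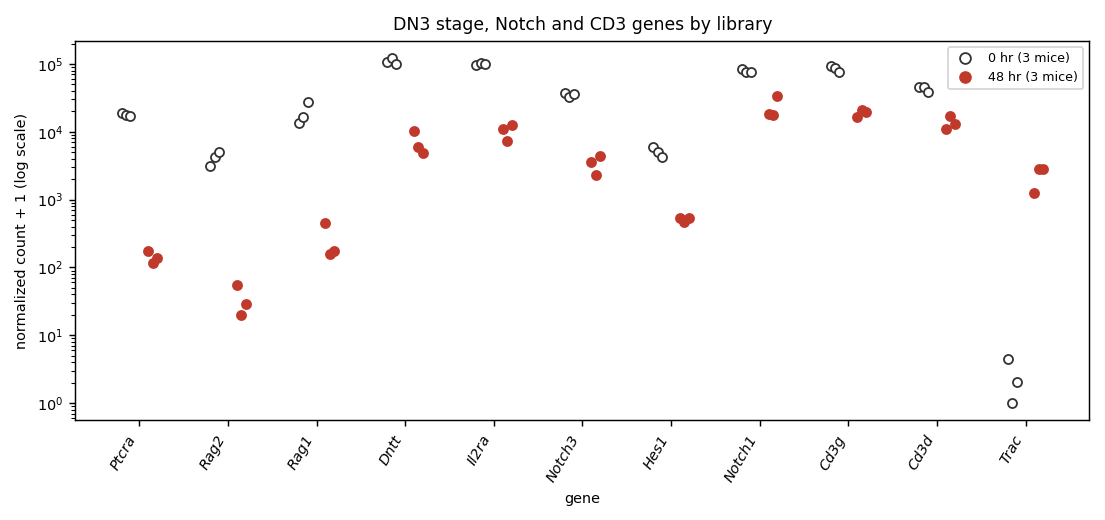
Normalized count plus 1 (y axis, log scale) of DN3 stage genes, Notch pathway genes and CD3 chains in each library, open circles for the 3 mice at 0 hr and filled circles for the 3 at 48 hr. Ptcra, Rag2, Rag1, Dntt, Il2ra, Notch3, Hes1, Notch1, Cd3g and Cd3d lie lower at 48 hr in every library, and Trac lies higher.

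*Notch1* and *Notch3* fell while several other genes of the pathway rose. Notch1 and Notch3 carry the signal that DN3 cells receive from thymic epithelium. *Notch3* went from 37669, 32863 and 35472 to 3543, 2276 and 4446 normalized counts and *Notch1* from 83785, 76564 and 77145 to 18502, 17528 and 33257. The 48 hr libraries all lay below the 0 hr libraries in both (log2 changes -3.42, SE 0.60, and -1.84, SE 0.35). The target *Hes1* fell by 3.28 and *Nrarp* fell with it (-1.36), and the largest fall of the list was that of *Uaca* (-4.99). The pseudokinase *Trib2* rose (4.98), from 288, 209 and 172 to 5425, 6291 and 9687, as did *Notch2* (2043 ± 304, then 4683 ± 1136; SD, n = 3) and the fringe glycosyltransferase *Lfng* (1.03). *Dtx1*, a further Notch target, stood at 21431 ± 4488 and then 30841 ± 15883 (SD, n = 3) and did not pass, and its control means were 7793 at 3 hr and 4189 at 24 hr. In all 8 of 18 genes tested rose and 6 fell, against 21.7% and 21.4% of all genes. The Notch list gave 5 and 6 without 48 hr replicate 3 (higher and lower). *Lfng* lost its call without 48 hr replicate 3 (adjusted p = 0.0664).

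Of the CD3 chains, *Cd3g*, *Cd3d* and *Cd3e* fell. *Cd3g* went from 93855, 86508 and 76061 to 16470.2, 20816 and 19382 and *Cd3d* from 45321, 45254 and 38093 to 10946, 17161 and 13176 normalized counts, with no overlap between times. Their log2 changes were -2.18 (SE 0.22) and -1.66 (SE 0.20), and that of *Cd3e*, the chain the antibody binds, was -0.69 (SE 0.22). *Cd247*, the ζ chain, did not pass (0.25). Of the TCR constant regions, those of the γ locus fell (*Trgc2* -1.80 and *Trgc1* -1.40), *Trbc1* rose (0.61), *Trbc2* did not pass (0.16) and *Trac* rose from near 0. Of 9 genes tested 2 rose and 5 fell, against 21.7% and 21.4% of all genes. The CD3 and TCR list gave 1 and 4 with the lane 1 library alone (higher and lower). *Cd3e* lost its call without 0 hr replicate 1 or 48 hr replicate 1 (adjusted p = 0.0515 to 0.0806).

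Coreceptors and other genes of the way to the DP stage rose. Of 24 tested 13 rose and 3 fell, against 21.7% and 21.4% of all genes. The median log2 change of the list was 1.63. *Cd5*, a brake on TCR signalling whose level follows signal strength, went from 122, 53.8 and 22.2 to 4369.6, 7061 and 4335 normalized counts. *Ccr9*, the receptor for CCL25, went from 2676, 1879 and 1665 to 20117, 20836 and 22338, and *Cd28*, a costimulatory receptor, from 286, 397 and 812 to 7999, 4948 and 5350.4. All 3 had every 48 hr library above every 0 hr library (log2 changes 6.57, 3.375 and 3.72, SE 0.81, 0.32 and 0.29). *Cd8a*, *Cd8b1* and *Cd4* rose to levels that were still low: *Cd8a* from 1.17, 8.45 and 10.6 to 161, 92.7 and 40.0, *Cd8b1* from 0, 5.28 and 20.1 to 172, 128 and 50.1 and *Cd4* from 56.2, 124 and 144 to 496, 1822 and 587. The control means of *Cd8a* were 4379.5 at 3 hr and 28.8 at 24 hr. *Cd53* (3.04), *Cd6* (3.44), *Cd27* (1.78) and *Cd52* (4.76) rose, and *Ly6d* (-3.85), *Aqp11* (-4.17) and *Arpp21* (-2.55) fell. *Themis* (-0.15) did not pass. *Cd8a* lost its call without 0 hr replicate 1 or 48 hr replicate 1 (adjusted p = 0.0555 to 0.0788). *Cd8b1* lost its call without 0 hr replicate 1 (adjusted p = 0.0704). *Cd4* lost its call without 0 hr replicate 1 or 48 hr replicate 2 (adjusted p = 0.0636 to 0.0662). *Cd5* changed by 7.16 without 0 hr replicate 1 on the log2 scale. *Cd5* changed by 5.96 without 0 hr replicate 3 on the log2 scale. *Cd8a* changed by 3.03 without 0 hr replicate 1 on the log2 scale. *Cd8b1* changed by 3.18 without 0 hr replicate 1 on the log2 scale. *Cd8b1* changed by 5.38 without 0 hr replicate 3 on the log2 scale.

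Transcription factors of the T lineage moved in both directions, with 25 of 41 higher and 8 lower, against 21.7% and 21.4% of all genes. *Ikzf3* (Aiolos) rose from 56.2, 41.2 and 68.8 to 8959, 7835 and 11604 normalized counts and *Id3*, an inhibitor of E proteins, from 538, 447 and 439 to 8412, 13164 and 10972. Neither gene had overlapping groups (log2 changes 7.40, SE 0.56, and 4.49, SE 0.34). *Etv5* (6.93), *Sox5* (6.12), *Tox2* (5.06), *Ikzf2* (3.26), *Runx3* (2.35), *Tox* (2.28), *Ikzf1* (1.84), *Id2* (1.82), *Gata3* (1.60), *Ets1* (1.31) and *Tcf7* (1.17) rose. The falls included *Runx1* (-0.98), *Myb* (-1.26), *Ets2* (-1.32), *Gfi1* (-1.41) and *Bhlhe40* (-2.32). The E protein genes *Tcf3* (0.076) and *Tcf12* (-0.18) did not pass, nor did the chromatin organizer *Satb1* (0.20). *Bcl11b*, which holds T cell identity, was 20062 ± 3184 and then 29229.6 ± 4845 (SD, n = 3; log2 change 0.54). *Lef1* (0.93) and *Sox4* (0.75) rose. *Bcl11b* lost its call without 0 hr replicate 2 or 48 hr replicate 3 (adjusted p = 0.0784 to 0.0841). *Lef1* lost its call without 0 hr replicate 1 (adjusted p = 0.0726).

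Genes that carry the TCR signal mostly rose. Of 39 tested 25 rose and 6 fell, where 21.7% of all genes rose and 21.4% fell. *Zap70*, the kinase recruited to the phosphorylated receptor, went from 1884, 2100.0 and 1711 to 9275, 14947 and 9972 normalized counts, while *Syk*, its relative used by the pre-TCR, went from 3597, 3821 and 4093 to 751, 753 and 853. The 2 kinases thus moved in opposite directions with no overlap between times (log2 changes 2.56, SE 0.28, and -2.29, SE 0.27). *Rasgrp1*, which activates RAS, rose from 2923, 3339.5 and 3851 to 36878, 31639 and 35781. *Prkcq* (2.13), *Fyn* (1.79), *Txk* (4.38), *Ubash3b* (4.02) and *Lcp2* (0.96) also rose. *Lck* fell by 0.81 on the log2 scale and *Tec* fell by 1.48. *Lat* went from 23488 ± 3088 to 17654 ± 2274 (SD, n = 3; log2 change -0.41) with overlapping groups. *Lat* lost its call without 0 hr replicate 1 or 2 or 48 hr replicate 1 or 3 (adjusted p = 0.0554 to 0.0751).

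Genes that follow a receptor signal within minutes to hours were still raised at 48 hr. Of 30 tested 23 rose and 3 fell, against 21.7% and 21.4% of all genes. The median log2 change of the list was 1.67. *Nr4a1*, which codes for Nur77, stood at 5.86, 7.39 and 7.40 normalized counts at 0 hr and at 2700.0, 3698 and 3874 at 48 hr. *Egr2*, an EGR factor needed at β-selection, went from 1.17, 2.11 and 1.06 to 209.7, 446 and 638. *Nab2*, a corepressor that binds EGR factors, went from 23.4, 25.3 and 25.4 to 2786, 5024 and 2887. In all 3 the 48 hr libraries were far above 0 hr (log2 changes 8.75, 7.35 and 7.06, SE 0.35, 0.50 and 0.28). The control means were 32924 at 3 hr and 2452 at 24 hr for *Nr4a1*, 3025 at 3 hr and 565 at 24 hr for *Egr2* and 11904 at 3 hr and 3085 at 24 hr for *Nab2*. *Egr1* (7.69), *Egr3* (7.63), *Cd69* (4.04), *Dusp6* (4.07), *Fos* (2.94), *Ier2* (1.51), *Junb* (1.44) and *Dusp2* (1.08) rose. *Jun* went the other way, from 1678, 1683 and 1205 to 102, 94.8 and 85.1 (log2 change -3.99, SE 0.49), as did *Ier3* (-2.19) and *Myc* (-1.47). *Dusp1* (0.018), *Spry1* (-0.62) and *Spry2* (-0.32) did not pass. *Egr3* changed by 8.32 without 0 hr replicate 2 on the log2 scale.

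**Figure D3:**
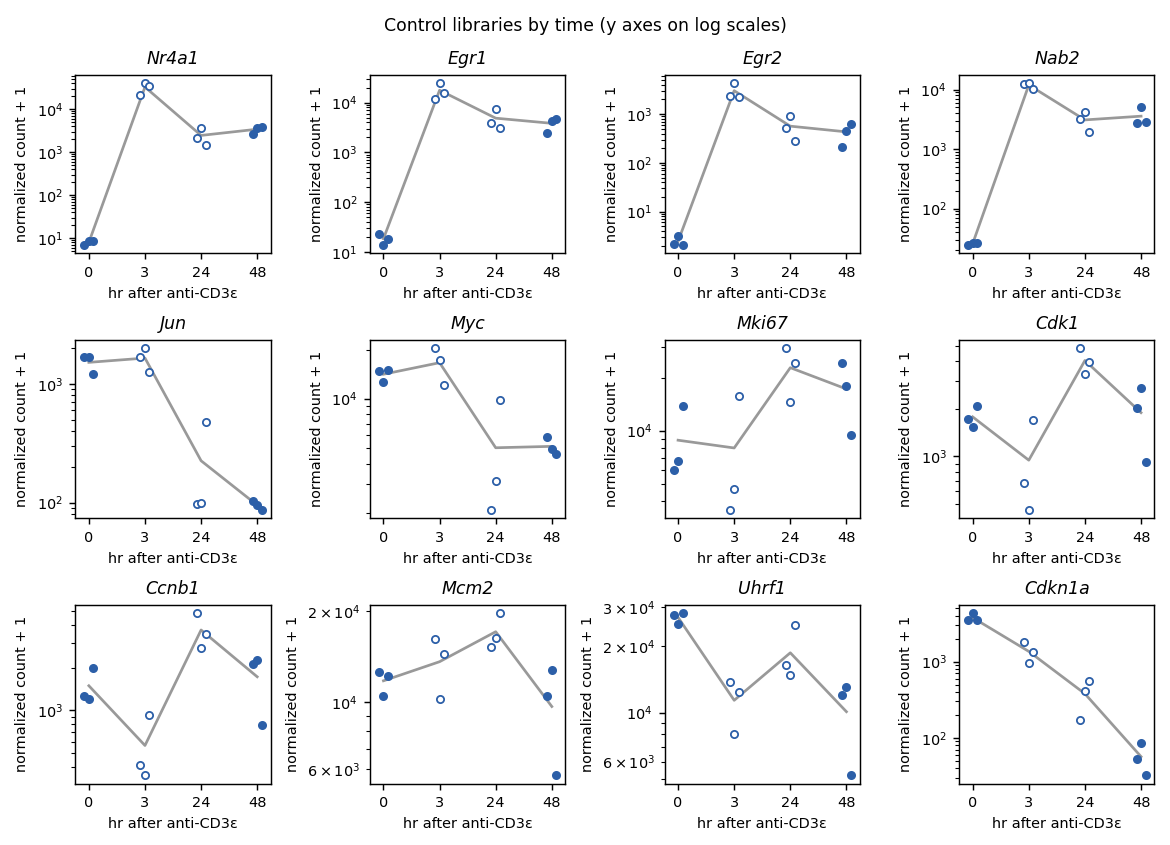
Normalized count plus 1 (y axis, log scale) of 12 genes in the control libraries at 0, 3, 24 and 48 hr (x axis, in order and not to scale), 1 point per mouse and a line through the group means. Filled points at 0 and 48 hr are the libraries compared, and open points at 3 and 24 hr came from other lanes and from mice without Xist reads above 13.8 and entered no test here.

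Activation and costimulatory receptors rose in 13 of 22 tested and fell in 2, where 21.7% of all genes rose and 21.4% fell. *Pdcd1*, which codes for PD-1, went from 586, 573 and 437 to 8448, 11725 and 7312 normalized counts. *Cd226* went from 15.2, 9.502 and 8.46 to 2088, 1557 and 2224 and *Btla* from 7.03, 4.22 and 8.46 to 1139, 1019 and 915. These 3 genes rose, with every 48 hr library above every 0 hr library (log2 changes 4.09, 7.37 and 7.12, SE 0.35, 0.48 and 0.465). *Ctla4*, an inhibitory receptor of T cells, was already high without stimulation and fell from 3039.5, 3092 and 3316 to 188, 142 and 125 (log2 change -4.39, SE 0.59). *Cd24a*, lost as thymocytes mature, fell by 2.45 on the log2 scale. The transferrin receptor *Tfrc* rose (1.49), and *Thy1*, the sort marker, did not pass (0.016), nor did *Cd200* (-0.0022), *Tnfrsf18* (0.0032), *Tnfrsf4* (0.97) and *Tnfrsf9* (1.39). *Cd44*, on which the gate excludes cells, rose from 43.4, 16.9 and 46.5 to 150.2, 137 and 178. *Tfrc* lost its call without 0 hr replicate 1 or 48 hr replicate 1 (adjusted p = 0.0624 to 0.102). *Tfrc* changed by 0.87 without 48 hr replicate 1 on the log2 scale.

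Genes of quiescence and egress rose with none falling. FOXO1 and KLF2 are factors that keep T cells at rest and drive the receptors by which they leave the thymus and enter lymph nodes. *Foxo1* went from 816, 743 and 900.1 to 8643, 7968 and 15733 normalized counts. *Klf2* went from 177, 221 and 60.3 to 11692, 17041 and 18099. Both rose with no overlap between times (log2 changes 3.65, SE 0.28, and 6.84, SE 0.71), beside *S1pr1* (10.18) and *Ccr7* (8.07). *Itgb7*, the integrin β7 chain, went from 379.6, 389.6 and 107 to 14510.3, 21859 and 24535 and *Il6ra*, the IL-6 receptor, from 2.34, 4.22 and 10.6 to 829.7, 959 and 1646. The control means of *Il6ra* were 6.12 at 3 hr and 32.0 at 24 hr, and those of *S1pr1* were 26.2 at 3 hr and 1555 at 24 hr. The latter joins 1914, 2312 and 440 in replicates 1, 2 and 3. Of 21 genes tested 16 rose, where 21.7% of all genes did, and the median log2 change of the list was 1.44. *Btg2* (-0.10), *Tsc1* (0.29) and *Tsc2* (-0.032) were among the 5 that did not pass. *Itgb7* changed by 5.68 without 0 hr replicate 3 on the log2 scale.

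The promoters of *Klf2*, *Itgb7* and *Gimap3* are shown because these genes rose together and KLF factors bind CACCC boxes. Matches of CACCC on either strand (GGGTG on the printed one) are in capitals, and the window is 250 bases before to 50 after the RefSeq start site (GRCm38.p6). *Klf2* lies at chr8:72318812-72319111 on the plus strand, *Itgb7* at chr15:102231886-102232185 on the minus strand and *Gimap3* at chr6:48770802-48771101 on the minus strand.
Klf2: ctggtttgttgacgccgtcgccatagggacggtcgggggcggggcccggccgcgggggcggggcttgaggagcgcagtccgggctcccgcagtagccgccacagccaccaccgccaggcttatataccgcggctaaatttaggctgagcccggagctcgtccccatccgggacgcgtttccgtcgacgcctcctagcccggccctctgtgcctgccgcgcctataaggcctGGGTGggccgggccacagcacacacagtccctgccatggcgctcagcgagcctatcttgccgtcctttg
Itgb7: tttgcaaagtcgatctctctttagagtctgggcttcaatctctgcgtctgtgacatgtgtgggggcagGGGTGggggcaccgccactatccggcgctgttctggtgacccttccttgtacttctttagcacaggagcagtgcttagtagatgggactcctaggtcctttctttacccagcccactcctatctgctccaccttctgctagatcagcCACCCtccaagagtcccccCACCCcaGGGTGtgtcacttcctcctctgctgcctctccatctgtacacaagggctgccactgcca
Gimap3: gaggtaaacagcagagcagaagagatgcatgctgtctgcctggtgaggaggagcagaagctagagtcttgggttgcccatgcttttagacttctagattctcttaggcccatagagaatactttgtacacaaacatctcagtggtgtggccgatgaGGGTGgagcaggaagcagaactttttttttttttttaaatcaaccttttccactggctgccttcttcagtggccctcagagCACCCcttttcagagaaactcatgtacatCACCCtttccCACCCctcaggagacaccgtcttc
There was 1 match in *Klf2* (-19 bases from the start site), 4 in *Itgb7* (-182, -35, -16 and -9) and 4 in *Gimap3* (-94, -13, 16 and 26). Of all promoters of this length 57.5% hold at least 1 match. Of 7 genes looked up for the 2 sets of promoters 6 had an entry, and *S1pr1* is named only.

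The GIMAP family, small GTPases of lymphocytes encoded side by side on chromosome 6, rose as a whole. All 8 members tested rose, where 21.7% of all genes did. *Gimap3* went from 4.69, 5.28 and 4.23 to 4953, 5690.0 and 9768 normalized counts and *Gimap4* from 12.9, 24.3 and 13.8 to 14394, 13643 and 15656. The log2 changes of these 2 were 10.15 (SE 0.95) and 9.715 (SE 0.53). *Gimap8* (4.93), *Gimap7* (3.46), *Gimap6* (3.25) and *Gimap5* (2.60) rose less, and *Gimap9* (0.80) and *Gimap1* (0.64), which already stood at 2513 and 3052 at 0 hr, rose least. The control mean of *Gimap4* was 136 at 3 hr and 6484 at 24 hr (9980, 7373 and 2100 in replicates 1, 2 and 3).

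**Figure D4:**
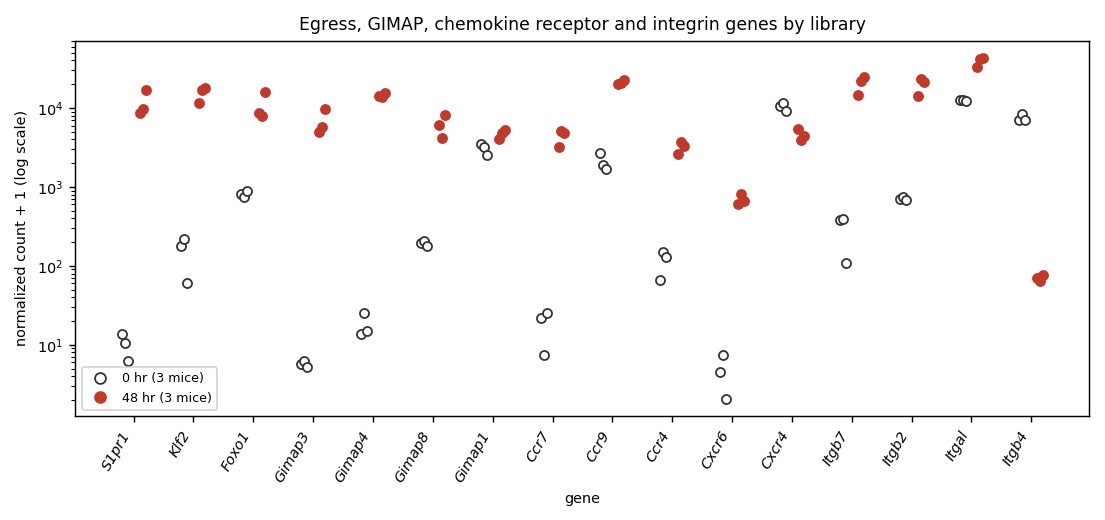
Normalized count plus 1 (y axis, log scale) of egress, GIMAP, chemokine receptor and integrin genes in each library, open circles for the 3 mice at 0 hr and filled circles for the 3 at 48 hr. Cxcr4 and Itgb4 lie lower and the other genes shown lie higher in every 48 hr library than in any 0 hr library.

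Of 19 chemokine receptor genes 11 reached the mean of 10, and 9 of these rose, where 21.7% of all genes did. Those near 0 at 0 hr, such as *Ccr8* and *Cxcr6*, reached it only through their 48 hr level. *Ccr4* went from 65.6, 149 and 128 to 2630.5, 3675 and 3293 normalized counts and *Cxcr6* from 3.52, 6.33 and 1.06 to 612, 804 and 659.8. *Ccr8* was at 0 in the 3 libraries at 0 hr and at 93.1, 147 and 54.1 at 48 hr, at least 89.5-fold higher with the 0 hr group set to 3 reads in all. *Ccr9* (3.375) and *Ccr7* (8.07) rose among the abundant receptors. *Cxcr4*, the CXCL12 receptor that acts beside the pre-TCR at β-selection, was the exception and fell from 10732, 11573 and 9229 to 5402, 3967 and 4474 (log2 change -1.19, SE 0.19, adjusted p = 3.20e-05). *Ccr10* had a control mean of 1014 at 24 hr and 200.6 at 48 hr. *Ccr10* changed by 7.73 without 48 hr replicate 3 on the log2 scale.

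Of 20 integrin and ICAM1 genes tested 9 rose and 4 fell, where 21.7% of all genes rose and 21.4% fell. *Itgb2* and *Itgal* together code for LFA1, which binds ICAM1. *Itgb2* went from 702, 739 and 686 to 14117, 23225 and 21076 normalized counts, and *Itgal* from 12679, 12658 and 12422 to 33041, 42283 and 43256. Each 48 hr library was above each 0 hr library in both chains (log2 changes 4.75, SE 0.38, and 1.64, SE 0.24). *Itgb3* (4.67), *Itgae* (2.52), *Itga2* (6.91) and *Icam1* (0.92) rose, and *Itgb4*, the partner of α6 in epithelial anchoring, fell from 7109, 8449.6 and 6958 to 69.5, 63.7 and 76.1 (log2 change -6.73). *Itga4* (0.56), *Itga6* (-0.28) and *Itgb1* (-0.19) did not pass. The integrin list gave 9 and 2 without 0 hr replicate 1 or 48 hr replicate 2 or with the lane 1 library alone, 8 and 2 without 0 hr replicate 3 and 10 and 2 without 48 hr replicate 1 (higher and lower). *Itgb5* (-1.64) fell. *Itgb5* lost its call without 0 hr replicate 1 or 2 or 3 or 48 hr replicate 1 or 2 (adjusted p = 0.0559 to 0.238). *Itga2* changed by 6.29 without 0 hr replicate 1 on the log2 scale. *Itga2* changed by 7.62 without 0 hr replicate 2 on the log2 scale. *Itgb5* changed by -0.97 without 48 hr replicate 2 on the log2 scale.

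Of 37 actin cytoskeleton genes 26 rose and none fell, against 21.7% and 21.4% of all genes. The median log2 change of the list was 0.76. *Tmsb10*, a thymosin that binds actin monomers, went from 12916, 8319 and 5331 to 82387, 134207 and 99729 normalized counts. *Vim*, the intermediate filament vimentin, went from 4456, 3675 and 1899 to 25345, 40029.9 and 32213 and *Evl*, of the Ena/VASP family, from 307, 275 and 342 to 7608, 10837 and 10988. These rose by log2 changes of 3.64, 3.35 and 4.98 (SE 0.41, 0.40 and 0.52). *Msn* (2.32), *Myh9* (2.02), *Actg1* (1.30), *Dock2* (1.14) and *Rac2* (0.69) rose as well, and *Rhoh* did not pass (-0.011). The actin list gave 25 and 1 without 0 hr replicate 3 and 24 and 2 without 48 hr replicate 2 (higher and lower). Scaled to a common upper quartile, 2 genes of the list fell.

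Cytokine receptors and their kinases rose in 18 of 29 tested and fell in 6, where 21.7% of all genes rose and 21.4% fell. *Tgfbr2* went from 1405, 1596 and 1667 to 8673, 10289 and 14624 normalized counts and *Il4ra* from 262, 309 and 225 to 2450.0, 5152 and 4516. *Pim2*, a kinase that promotes survival, went from 157, 119 and 144 to 1390.4, 1932 and 2301. None of the 3 overlapped between times (log2 changes 2.815, 3.86 and 3.71, SE 0.31, 0.48 and 0.45). *Il2rg* (1.21) rose, and *Socs2* (-3.44), *Ifngr1* (-1.26) and *Cish* (-1.33) fell. *Socs1* (-0.51), *Socs3* (-0.75) and *Pim1* (-0.29) did not pass. Of 21 NF-kB genes 12 rose and 4 fell, against the same 21.7% and 21.4% of all genes. Among the subunits *Rel* (2.31), *Relb* (2.21) and *Nfkb1* (0.37) rose and *Nfkb2* fell (-1.71). Among inhibitors *Nfkbia* (1.73) rose and *Nfkbie* (-1.87) and *Tnfaip3* (-0.82) fell. *Bcl3*, of the same list, rose by 4.28 on the log2 scale. The NF-kB list gave 11 and 2 with the lane 1 library alone (higher and lower). *Nfkbiz* (2.88) rose and *Traf1* (-0.74) fell. *Cish* lost its call without 0 hr replicate 1 or 2 or 48 hr replicate 1 (adjusted p = 0.0549 to 0.162). *Nfkb1* lost its call without 0 hr replicate 1 or 3 or 48 hr replicate 2 or 3 (adjusted p = 0.0569 to 0.0803). *Traf1* lost its call without 0 hr replicate 3 or 48 hr replicate 1 or 2 (adjusted p = 0.05 to 0.141).

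Division genes differed between mice of the same group. Pre-TCR signals drive thymocytes into division. *Mki67*, a marker of cycling cells, stood at 6008, 6727 and 13751 normalized counts at 0 hr and at 24319, 17895 and 9487 at 48 hr. *Cdk1*, the mitotic kinase, stood at 1715, 1539 and 2075 and at 2026, 2727 and 915. In both, 48 hr replicate 3 was below the other 2 libraries of its time and 0 hr replicate 3 above the other 2 of its own, and neither gene passed (log2 changes 0.96, SE 0.51, and -0.038, SE 0.39). The control means at 3 and 24 hr were 7977 and 22762 for *Mki67* and 945 and 4044 for *Cdk1*.

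Of 52 mitosis and cytokinesis genes 2 rose (*Cdc25b* 1.67 and *Smc4* 1.05) and none fell, where 43.1% of all genes passed. Their median log2 difference from the 0 hr mean was 0.68, 0.64 and -0.48 in 48 hr replicates 1, 2 and 3, of which the last came from lane 1. *Ccna2* (0.45), *Ccnb1* (0.10), *Plk1* (0.26), *Aurkb* (0.065), *Birc5* (0.27) and *Foxm1* (0.64) did not pass. The mitosis list gave 2 and 1 without 48 hr replicate 2 and 2 and 4 with the lane 1 library alone (higher and lower). Of 52 DNA replication genes 2 rose and 10 fell (23.1% passed, against 43.1% of all genes). The corresponding medians were 0.15, 0.093 and -0.845. *Uhrf1*, which guides maintenance methylation, fell from 27598, 25146 and 28225 to 12057, 13034 and 5196 (log2 change -1.53). *Pcna* (-0.17), *Mcm2* (-0.36), *Mcm5* (-0.20), *Cdc6* (0.19), *Cdc45* (0.072) and *Orc1* (-0.13) did not pass. The replication list gave 1 and 7 without 0 hr replicate 1 or 2, 1 and 10 without 48 hr replicate 1, 2 and 4 without 48 hr replicate 3 and 0 and 23 with the lane 1 library alone (higher and lower). Of 29 repair and checkpoint genes, *Xrcc6*, the Ku70 subunit of end joining, was the 1 that fell, from 18461, 19962 and 18669 to 4577, 4092 and 3491 (log2 change -2.24), and none rose. The repair list gave 3 and 1 without 0 hr replicate 3, 0 and 2 without 48 hr replicate 1, 1 and 1 without 48 hr replicate 2 or 3 and 1 and 2 with the lane 1 library alone (higher and lower). *Orc5* (0.42) and *Rpa1* (0.63) rose, *Prim2* (-0.98) fell and *Aurka* (-0.21), *Ccnb2* (-0.086) and *Cdc20* (-0.15) did not pass. *Orc5* lost its call without 0 hr replicate 1 or 2 or 48 hr replicate 1 or 3 (adjusted p = 0.118 to 0.25).

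Of 9 CDK inhibitors and pocket proteins 4 rose and 1 fell (55.6% passed). Of 20 G1 and S genes 6 rose and 3 fell, so that 45.0% passed, near the 43.1% of all genes. *Cdkn1a*, the CDK inhibitor p21, fell from 3493, 4351 and 3518 to 51.6, 84.0 and 31.037 normalized counts, every library at 48 hr under every library at 0 hr (log2 change -6.17, SE 0.40, adjusted p = 5.10e-10). Its control means were 1362 at 3 hr and 378 at 24 hr. *Rb1* (1.55), *Rbl2* (1.00), *Cdkn1c* (1.15) and *Cdkn1b* (0.49) rose. *Cdkn2c* (0.19) and *Rbl1* (0.44) did not pass. Among G1 and S genes, *Ccne1* (1.27), *Ccnd2* (0.76), *Cdk2* (0.64) and *Ccnd3* (0.51) rose, *Cdk6* (-1.02) and *Cdk4* (-0.45) fell, and *E2f1* (0.065), *E2f2* (0.39) and *Ccne2* (-0.20) did not pass. The G1 and S list gave 3 and 2 without 0 hr replicate 2 and 2 and 3 with the lane 1 library alone (higher and lower). *Ccnd1* (2.32) rose, *E2f4* (-0.68) fell and *Ccng2* (0.58), *Cdc25a* (0.26) and *E2f8* (0.76) did not pass. *Cdkn1c* lost its call without 0 hr replicate 1 (adjusted p = 0.0797). *Cdkn1b* lost its call without 48 hr replicate 3 (adjusted p = 0.128). *Ccnd2* lost its call without 48 hr replicate 3 (adjusted p = 0.0636). *Ccnd3* lost its call without 0 hr replicate 1 or 2 or 3 or 48 hr replicate 2 (adjusted p = 0.0602 to 0.142). *Cdk4* lost its call without 0 hr replicate 1 or 2 or 48 hr replicate 1 or 3 (adjusted p = 0.0543 to 0.267). *Ccnd1* lost its call without 0 hr replicate 2 or 3 or 48 hr replicate 1 or 3 (adjusted p = 0.0952 to 0.379). *Ccnd1* changed by 0.82 without 48 hr replicate 1 on the log2 scale. *Ccnd1* changed by 3.88 without 48 hr replicate 2 on the log2 scale.

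*Myc* fell from 14766, 12678 and 14922 to 5812, 4923 and 4558 normalized counts (log2 change -1.47, SE 0.37), with control means of 16619 at 3 hr and 4997 at 24 hr. *Mycn* (-2.80) and *Mxi1* (-0.80) fell too, *Mxd1* rose (0.72), and *Max* (0.048), *Mxd3* (0.061) and *Mxd4* (-0.083) did not pass. Of 11 genes of the MYC network 4 rose and 3 fell (63.6% passed, against 43.1% of all genes). The MYC network list gave 2 and 3 without 0 hr replicate 2 and 1 and 3 without 48 hr replicate 3 (higher and lower). Of 49 ribosome biogenesis genes, many of them MYC targets, 1 rose and 8 fell, against 21.7% and 21.4% of all genes. *Wdr12* (-1.19) and *Fbl* (-0.58) fell, *Ncl* (0.043), *Nop56* (-0.39), *Nolc1* (-0.093) and *Gnl3* (-0.51) did not pass. Ribosome biogenesis gave 1 and 5 without 0 hr replicate 1, 1 and 4 without 48 hr replicate 3 and 1 and 13 with the lane 1 library alone (higher and lower). *Mnt* (0.86) and *Ubtf* (0.76) rose and *Nop16* (-0.88) fell. *Mxd1* lost its call without 48 hr replicate 3 (adjusted p = 0.111). *Fbl* lost its call without 0 hr replicate 1 or 48 hr replicate 3 (adjusted p = 0.0641 to 0.123).

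Cytosolic ribosomal protein genes were lower in 62 of 75 tested and higher in none, where 21.4% of all genes fell and 21.7% rose. The median log2 change of the list was -0.64. *Rps14* fell from 143761, 110606 and 92904 to 34654, 49443 and 30909.8 normalized counts (log2 change -1.60, SE 0.24), and *Rplp0* from 157771 ± 21470.5 to 101628 ± 21877 (SD, n = 3; -0.65). *Rps6* fell by 0.64 on the log2 scale. These genes share reads with many pseudogene copies, so the value of each is uncertain. Cytosolic ribosomal proteins gave 0 and 38 without 0 hr replicate 1 and 0 and 34 without 48 hr replicate 3 (higher and lower). Of 38 translation factors 5 rose and 7 fell, so that 31.6% passed, against 43.1% of all genes. *Eef2k*, the kinase that halts elongation, fell from 15464, 13811 and 12639 to 3549, 3717 and 3999 (log2 change -1.89), *Eif4g3* rose (0.94), and *Eef1a1* (-0.39), *Eef2* (-0.18), *Eif4a1* (-0.32) and *Eif4ebp1* (-0.17) did not pass. Translation factors gave 2 and 3 without 0 hr replicate 1, 2 and 6 without 0 hr replicate 2, 2 and 4 without 48 hr replicate 1, 5 and 12 without 48 hr replicate 2, 3 and 3 without 48 hr replicate 3 and 2 and 11 with the lane 1 library alone (higher and lower). *Pabpc1* (0.54) rose and *Eef1b2* (-0.75) and *Rps19* (-1.19) fell. *Rplp0* lost its call without 0 hr replicate 1 or 48 hr replicate 3 (adjusted p = 0.0697 to 0.0797). *Rps6* lost its call without 0 hr replicate 1 or 48 hr replicate 3 (adjusted p = 0.0562 to 0.0569).

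Of 28 genes of glycolysis and the pentose phosphate path 9 rose and 7 fell, where 21.7% of all genes rose and 21.4% fell. *Eno1*, an enolase, went from 6248, 5060.5 and 4459 to 14407, 23417 and 13801 normalized counts and *Ldhb*, a lactate dehydrogenase chain, from 6457, 5675 and 4709.9 to 1266, 2178 and 1106. The first rose and the second fell, both with no overlap between times (log2 changes 1.68, SE 0.28, and -1.94, SE 0.26). *Hk2* (1.497) and the glucose transporters *Slc2a1* (1.16) and *Slc2a3* (1.30) rose, and *Gapdh* (-0.54), *Pkm* (0.23) and *Aldoa* (0.33) did not pass. Of 26 cholesterol and fatty acid genes 10 fell and 1 rose (42.3% passed, against 43.1% of all genes). *Sqle* fell (-1.33), whereas *Fasn* (0.31) did not pass. In 48 hr replicates 1, 2 and 3 the median difference of this list from the 0 hr mean was -0.25, -0.15 and -0.93. The cholesterol list gave 0 and 9 without 0 hr replicate 1, 0 and 8 without 0 hr replicate 2, 0 and 10 without 0 hr replicate 3, 0 and 12 without 48 hr replicate 2, 2 and 8 without 48 hr replicate 3 and 0 and 15 with the lane 1 library alone (higher and lower). *Acly* (0.23), *Ldha* (0.51), *Pfkp* (2.29) and *Slc16a3* (2.40) rose, *Pgls* (-1.501) fell and *Idi1* (-1.17) did not pass. *Acly* lost its call without 0 hr replicate 1 or 2 or 3 or 48 hr replicate 2 (adjusted p = 0.051 to 0.213). *Ldha* lost its call without 0 hr replicate 2 or 3 or 48 hr replicate 2 (adjusted p = 0.0502 to 0.16).

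Of 46 nuclear genes of the respiratory chain 16 fell and none rose (median log2 change -0.375). The share that fell was 34.8%, against 21.4% of all genes. The median log2 difference from the 0 hr mean was -0.40, -0.060 and -0.67 in 48 hr replicates 1, 2 and 3. The respiratory chain gave 0 and 7 without 0 hr replicate 1, 0 and 33 without 48 hr replicate 2 or with the lane 1 library alone and 0 and 5 without 48 hr replicate 3 (higher and lower). Scaled to a common upper quartile, 33 fell. *Cox7b* (-0.66) and *Ndufab1* (-0.65) fell most, and *Cycs*, cytochrome c, did not pass (0.045). Of 33 nucleotide synthesis genes 3 rose and 8 fell (33.3% passed, against 43.1% of all genes). The nucleotide list gave 3 and 4 without 0 hr replicate 1, 4 and 4 without 48 hr replicate 3 and 3 and 16 with the lane 1 library alone (higher and lower). *Phgdh* (-1.32) and *Impdh2* (-0.94) fell and *Mthfd2* rose (1.06), while *Tyms* (-0.53), *Rrm1* (-0.12) and *Rrm2* (0.68) did not pass. Of 11 genes of amino acid and iron uptake, *Tfrc* among them, 4 rose and 1 fell (45.5% passed, against 43.1% of all genes). The transporters gave 1 and 1 without 0 hr replicate 1 or 48 hr replicate 1 and 0 and 1 with the lane 1 library alone (higher and lower). *Slc3a2* rose (0.58), *Slc43a1* fell (-1.52) and *Slc7a5* (-0.17) and *Slc1a5* (0.29) did not pass. *Mthfd1l* (0.93) and *Slc1a4* (1.39) rose, *Dck* (-1.08) fell and *Cad* (0.32), *Shmt2* (-0.074) and *Tk1* (-0.53) did not pass. *Slc1a4* lost its call without 0 hr replicate 1 or 3 or 48 hr replicate 1 or 2 (adjusted p = 0.0553 to 0.135).

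Among p53 and its targets 6 of 20 rose and 2 fell, so that 40.0% passed, near the 43.1% of all genes. *Zmat3* rose (2.34), as did *Gadd45a* (1.25), and *Trp53* itself did not pass (-0.33). The p53 list gave 5 and 1 without 48 hr replicate 1 (higher and lower). In the BCL2 family, which sets survival against death, 2 of 13 rose and 3 fell (38.5% passed). *Bcl2l11*, the death promoter BIM, went from 1437, 1284 and 1632 to 784, 657 and 826 normalized counts (log2 change -0.94, SE 0.32) and *Mcl1*, a survival gene, from 7357, 8492 and 8127 to 9459, 9382 and 12449.8 (0.37, SE 0.12). The groups did not overlap in either gene. *Bcl2* (0.63), *Bcl2l1* (-0.20), *Bmf* (-0.75) and *Bax* (0.063) did not pass. The BCL2 family list gave 1 and 3 without 0 hr replicate 1 or 3, 2 and 1 without 48 hr replicate 2 or with the lane 1 library alone and 1 and 4 without 48 hr replicate 3 (higher and lower). *Bbc3* (1.05) rose and *Bid* (-0.78) and *Ei24* (-0.41) fell. *Bcl2l11* lost its call without 0 hr replicate 3 or 48 hr replicate 2 (adjusted p = 0.0632 to 0.0643). *Mcl1* lost its call without 0 hr replicate 1 or 48 hr replicate 3 (adjusted p = 0.0717 to 0.119). *Bbc3* lost its call without 0 hr replicate 3 or 48 hr replicate 2 (adjusted p = 0.0542 to 0.0564). *Ei24* lost its call without 48 hr replicate 1 (adjusted p = 0.0675).

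Of 21 genes of MHC class I presentation 4 rose and 5 fell, and of 45 interferon-stimulated genes 4 rose and 11 fell. The shares that passed were 42.9% and 33.3%, against 43.1% of all genes. *B2m* was 76369 ± 11155 at 0 hr and 75508 ± 14793 at 48 hr (SD, n = 3; log2 change -0.024), and *H2-K1* (0.042), *H2-D1* (0.22) and *Tap1* (0.033) did not pass, nor did *B2m*. The inducible proteasome subunit *Psmb8* fell (-0.70), *Tap2* fell (-1.09) and *H2-Q2* rose (3.58). The MHC list gave 4 and 3 without 0 hr replicate 1 or 48 hr replicate 1, 2 and 5 without 0 hr replicate 3, 1 and 3 without 48 hr replicate 3 and 7 and 4 with the lane 1 library alone (higher and lower). *Bst2*, which tethers virus particles, went from 4822, 4712 and 3752 to 1072, 1428 and 943 normalized counts (log2 change -1.96), *Ly6a* (-1.76) and *Ly6c1* (-1.80) fell, and *Oas3* (2.26) and *Ly6c2* (4.36) rose. *Isg15* (-0.78), *Irf7* (0.76) and *Ifit3* (2.09) did not pass. The interferon list gave 2 and 10 without 0 hr replicate 1, 2 and 8 without 0 hr replicate 2, 2 and 11 without 48 hr replicate 3 and 3 and 5 with the lane 1 library alone (higher and lower). A fit of the 6 libraries without the other groups gave 9 and 15. *Ifit3b* (2.66) and *Nlrc5* (0.96) rose, *Oasl2* (-1.99) fell and *Gbp2* (-0.49), *H2-Q7* (0.45), *H2-T3* (-0.58) and *Irf1* (-0.19) did not pass. *Ifit3b* lost its call without 0 hr replicate 1 or 2 or 48 hr replicate 1 or 2 or 3 (adjusted p = 0.0518 to 0.165). *Nlrc5* lost its call without 48 hr replicate 3 (adjusted p = 0.082). *Oasl2* lost its call without 0 hr replicate 2 or 48 hr replicate 1 (adjusted p = 0.0546 to 0.0672). *Ifit3b* changed by 1.92 without 0 hr replicate 1 on the log2 scale. *Ifit3b* changed by 3.26 without 0 hr replicate 3 on the log2 scale.

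Genes of killer and innate-like lymphocytes rose in 9 of 12 tested and fell in 1, where 21.7% of all genes rose and 21.4% fell. *Prf1*, perforin, went from 5.86, 7.39 and 1.06 to 331, 682 and 842 normalized counts, and *Nkg7* from 2945 ± 925 to 9458 ± 2416 (SD, n = 3; log2 change 1.70). *Gzma*, granzyme A, was high at both times and uneven at 48 hr (21017, 11468 and 6691, log2 change 1.05, not passing). *Gzmb* was low (25.8, 7.39 and 1.06, then 2.24, 10.9 and 46.1) and did not pass (log2 change 0.66). Of 20 genes of the list 8 did not reach the mean of 10. Those near 0 at 0 hr, such as *Prf1* and *Ccl5*, reached it only through their 48 hr level. The share of the list that rose is thus partly set by this filter. The factor *Zbtb16* (PLZF) rose (2.94), *Tbx21* (T-bet) rose to 31.4, 39.8 and 57.1 (1.99), and *Fcer1g* fell (-1.95). The granzyme list gave 7 and 0 with the lane 1 library alone (higher and lower). The part of other lymphocytes, whose marker sums stand above, was not tested. *Ccl5* (3.69) rose. *Zbtb16* lost its call without 0 hr replicate 1 or 2 or 3 or 48 hr replicate 1 or 3 (adjusted p = 0.0677 to 0.0837). *Tbx21* lost its call without 0 hr replicate 2 or 3 or 48 hr replicate 3 (adjusted p = 0.0541 to 0.0846). *Prf1* changed by 6.25 without 0 hr replicate 3 on the log2 scale. *Ccl5* changed by 2.87 without 0 hr replicate 1 on the log2 scale. *Ccl5* changed by 4.30 without 0 hr replicate 2 on the log2 scale.

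Of 7 imprinted genes tested 2 fell and 2 rose (57.1% passed, against 43.1% of all genes). *Igf2*, the growth factor next to *H19* on chromosome 7, fell from 682, 906 and 479 to 10.091, 23.9 and 13.015 normalized counts (log2 change -5.41, SE 0.60). *H19* and *Igf2* are expressed from opposite parental copies, and both were low in every library at 48 hr. *Igf2r* (1.375) and *Cdkn1c* (1.15) rose. *Grb10* did not pass (-1.06). Imprinted genes gave 1 and 2 with the lane 1 library alone (higher and lower). Of 7 long noncoding and micro RNA host genes 2 fell and 1 rose (42.9% passed, near the 43.1% of all genes). Besides *H19*, *Snhg12* fell (-0.48) and *Malat1* rose with overlapping groups (5574, 7971 and 16482, then 22074, 8521 and 43274). *Gas5* (-0.81), *Neat1* (0.74) and *Mir17hg* (-0.13) did not pass. These noncoding genes gave 0 and 1 without 0 hr replicate 1 or 48 hr replicate 1 or 3, 0 and 2 without 0 hr replicate 2, 1 and 1 without 0 hr replicate 3 or with the lane 1 library alone and 2 and 2 without 48 hr replicate 2 (higher and lower). *Cdkn1c* lost its call without 0 hr replicate 1 (adjusted p = 0.0797). *Snhg12* lost its call without 0 hr replicate 1 or 3 or 48 hr replicate 1 or 3 (adjusted p = 0.0589 to 0.0936). *Malat1* lost its call without 0 hr replicate 1 or 2 or 48 hr replicate 1 or 3 (adjusted p = 0.107 to 0.319). *Malat1* changed by 1.78 without 48 hr replicate 2 on the log2 scale.

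In the WNK pathway, which controls chloride cotransport through the kinases OXSR1 and STK39, 5 of 10 rose and none fell. *Wnk1* rose from 6135 ± 1064 to 13165 ± 3327 normalized counts (SD, n = 3; log2 change 1.09, SE 0.23, adjusted p = 7.86e-04). *Stk39* went from 90.2, 100.3 and 92.0 to 359.9, 836 and 708 (log2 change 2.65) and *Slc12a2*, a sodium, potassium and chloride cotransporter, from 153, 99.2 and 107 to 332, 235 and 341 (1.34). *Oxsr1* (0.18) and *Slc12a7* (0.28) did not pass. The floxed and the intact copy of *Wnk1* cannot be told apart in a gene count.

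Of 23 genes of DNA methylation and chromatin 7 rose and 4 fell, so that 47.8% passed, near the 43.1% of all genes. *Dnmt3a* (1.12), *Tet2* (1.24) and *Hdac7* (1.08) rose. *Smarca4*, the ATPase of the BAF remodeller, fell from 60300.1, 52599 and 53647 to 15485, 18333 and 15542 normalized counts (log2 change -1.76, SE 0.19), and *Dnmt3b* fell (-0.84). *Dnmt1* (0.18) and *Ezh2* (0.071) did not pass. Chromatin regulators gave 8 and 7 with the lane 1 library alone (higher and lower). Of 30 lysosome genes 7 rose and 5 fell (40.0% passed, near the 43.1% of all genes). *Ctss* rose (3.85), as did *Tfeb*, from 24.6, 28.5 and 36.0 to 197, 323 and 304 (3.15). *Ctsl* fell (-1.44), and *Ctsd* (-0.45) and *Lamp1* (0.022) did not pass. The lysosome list gave 6 and 3 without 0 hr replicate 1, 7 and 3 without 48 hr replicate 1 and 6 and 1 with the lane 1 library alone (higher and lower). Of 18 heat shock and chaperone genes 4 rose and 2 fell (33.3% passed, against 43.1% of all genes). The chaperone list gave 3 and 0 without 0 hr replicate 1 or 48 hr replicate 3, 4 and 0 without 0 hr replicate 2, 2 and 1 without 0 hr replicate 3, 2 and 3 without 48 hr replicate 2 and 1 and 5 with the lane 1 library alone (higher and lower). *Hspa5*, the chaperone of the endoplasmic reticulum, rose (1.07) and *Hsp90aa1* did not pass (0.023). Of 16 genes of the ATF4 response 3 rose and 2 fell (31.2% passed, against 43.1% of all genes). *Ddit4*, an inhibitor of mTORC1, was higher (4379, 6910.0 and 7109 at 48 hr against 1392, 1444 and 1059). *Atf4* (0.099), *Ddit3* (0.26) and *Trib3* (0.60) did not pass. *Dnajb1* (0.44), *Eif2ak3* (0.45), *Hsp90b1* (0.73), *Kdm6b* (1.13) and *Tet1* (0.96) rose, *Atp6v0a1* (-1.53), *Cct3* (-0.51), *Ctsh* (-1.67), *Eif2ak4* (-0.48) and *Tcp1* (-0.43) fell and *Asns* (-1.09), *Ezh1* (0.41), *H2az1* (-0.39), *Hmgb2* (-0.22) and *Hspa1b* (0.94) did not pass. *Dnajb1* lost its call without 0 hr replicate 3 or 48 hr replicate 2 or 3 (adjusted p = 0.0641 to 0.18). *Hsp90b1* lost its call without 0 hr replicate 1 or 48 hr replicate 1 (adjusted p = 0.0509 to 0.0792). *Tet1* lost its call without 48 hr replicate 3 (adjusted p = 0.0529). *Cct3* lost its call without 0 hr replicate 1 or 2 or 48 hr replicate 3 (adjusted p = 0.0511 to 0.155). *Ctsh* lost its call without 0 hr replicate 1 or 2 or 48 hr replicate 1 (adjusted p = 0.053 to 0.111). *Tcp1* lost its call without 0 hr replicate 1 or 2 or 3 or 48 hr replicate 2 or 3 (adjusted p = 0.0662 to 0.258).

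**Figure D5:**
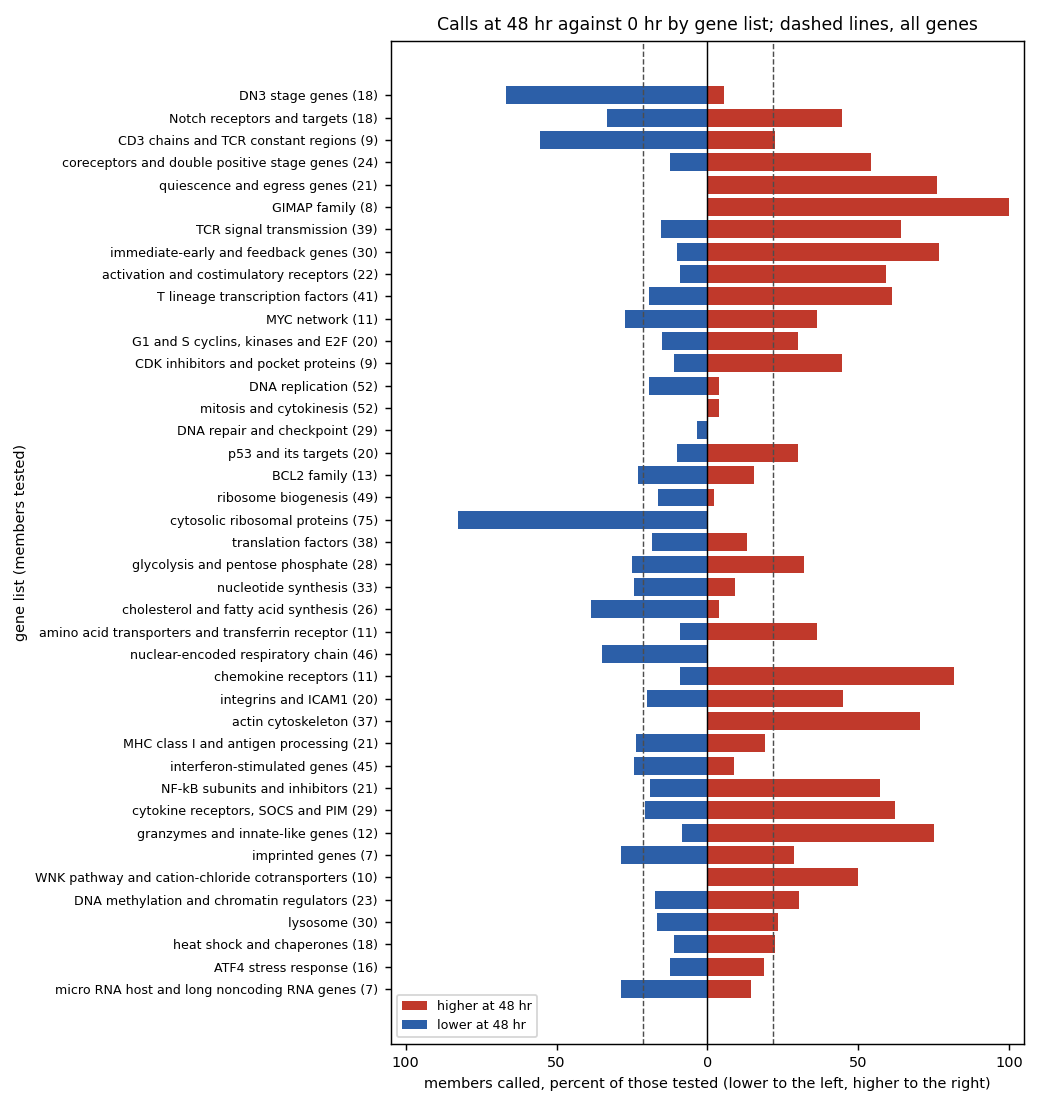
Share of the tested members of each of the 41 gene lists that were higher (red, to the right) or lower (blue, to the left) at 48 hr, in percent, with the number of members tested after each name. Dashed lines mark 21.7% higher and 21.4% lower, the shares over all 13948 genes. The GIMAP family has all 8 members higher and the cytosolic ribosomal proteins 62 of 75 lower, while the mitosis list has 2 of 52 higher.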

How the data were processed

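RNA of sorted thymocytes was sequenced by the authors as 75 base single-end reads of stranded polyA libraries. Per the submitters' notes, Trimmomatic 0.36, STAR 2.5.2a, RSEM 1.2.31, R 3.4.1 and DESeq2 1.18.1 were used with GRCm38 and Ensembl release 86. The authors deposited a signal per gene, the read count divided by 1 size factor per library. Whole reads were recovered from the steps of these values (100% within 0.01; in 48 hr replicate 3 a read is worth 1.00, so the test cannot tell there). RSEM assigns reads that fit several genes by estimation.

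Samples were grouped by their titles. Values were tested as log2(value + 1) by limma 3.58.1 under R 4.3.3, with all 25 libraries as 8 groups, a trended prior and Benjamini-Hochberg adjustment over the 13948 genes with a mean of at least 10. This gives every adjusted p, including those without 1 library, at a threshold of 0.05. An exact permutation test of 3 against 3 cannot go below 0.10. On the recovered reads edgeR 4.0.16 called 5979 genes and DESeq2 1.42.0 called 6283. The fits were tested on simulated data. Other scalings, filters, covariates and left-out libraries were tried.

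The comparison and the 41 gene lists were chosen with earlier results of these data known. Named were the 15 largest rises and falls with a mean of at least 100 and no overlap, the key genes of each list, its 2 largest rises and falls that passed, and the genes next to the filter. Chosen after their values were seen were *Arpp21*, *Btg2*, *Ccr10*, *Ccr8*, *Cd44*, *Cd52*, *Cd53*, *Cd6*, *Ctsl*, *Dusp1*, *Egr3*, *Hhex*, *Igll1*, *Ikzf2*, *Itgb3*, *Lfng*, *Lmo2*, *Lyz2*, *Max*, *Nab2*, *Nkg7*, *Oas3*, *Pdcd1*, *Pdgfrb*, *Rag1*, *Sox5*, *Spry1*, *Spry2*, *Tox2*, *Trgc1*, *Trp53*, *Tsc1* and *Tsc2*. Some list members were not analysed here, and some genes of the rule are not reported here.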

Additional observations from a re-analysis of the deposited data

How the results depend on the processing

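The number of genes passing stayed within 1.5 times of 6007 under every alternative but a fold minimum. Requiring at least 2-fold left 3079 genes, 1582 higher and 1497 lower. Leaving out 1 library in turn gave 4774 to 6069 genes, with 2375 to 3048 higher and 2316 to 3021 lower. No gene that passed in both settings changed direction. Scaling shifted the split: 50.4% of calls were higher as deposited, 43.5% with equal totals and 41.3% with equal upper quartiles. Outside the control 48 hr group, lane 2 held only 1 whole group of the series. With the sequencing lane as a covariate the change is thus that of 48 hr replicate 3 against the 0 hr mean. The same holds with the lane 1 library alone at 48 hr, an alternative chosen after seeing the data. That alternative leaves 1 mouse in this arm and takes its spread from the other groups. Both settings gave the same median log2 changes of the lists. These were -0.845 against -0.14 as deposited for the replication list, -0.756 against -0.27 for nucleotide synthesis and -0.38 against -0.15 for ribosome biogenesis. They were -0.48 against 0.27 for the mitosis list, -0.67 against -0.375 for the respiratory chain and -0.15 against 0.16 for the G1 and S list. The cause was not tested. In a fit of only the 6 libraries the interferon list had 9 higher and 15 lower against 4 and 11, the respiratory chain 0 and 9, and the chaperone list 3 and 0 against 4 and 2. More members were higher than lower in 26 of the 41 lists and in 20 to 26 over the alternatives. Of 270 named genes that passed, 83 missed the threshold under some alternative, and none reversed. The alternatives include the 2-fold minimum, which any gene that changed by less than 2-fold misses by definition. The 83 thus do not count effects of processing alone. Replicate numbers are mouse numbers, and deviations of same-numbered libraries correlated at -0.16, -0.030 and 0.092. A fit with the replicate number as a block called 5814 genes, 2950 higher and 2864 lower. With 3 mice per time, a gene that did not pass is not shown to be unchanged.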
